A study of Homo sapiens with 24 samples.

Results

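The genes described here encode 10 ATP-binding cassette (ABC) efflux transporters that move drugs, bile salts, phospholipids, conjugates and signalling molecules out of cells: ABCB1, ABCB4, ABCB11, ABCC1, ABCC2, ABCC3, ABCC4, ABCC5, ABCC6 and ABCG2. They were taken as a list of symbols, and each symbol matched 1 Ensembl gene ID among the 78724 IDs of each deposited count table. RNA sequencing had been done on 24 libraries from 2 human biliary tract cancer cell lines. OCUG-1 is a gallbladder cancer line kept in DMEM, while HuCCT1, kept in RPMI-1640, was derived from a cholangiocarcinoma of the liver. The medium thus differs with the line, and there is 1 line of each origin. Each line had 4 arms of 3 biological replicates, all treated for 72 h. The vehicle arm received DMSO at no more than 0.1%. Sorafenib was given at a low dose of 1.25 µM or a high dose of 10 µM, and in the combination arm the low dose was joined by IACS-010759 at 1 µM. Sorafenib is an inhibitor of several kinases, RAF and VEGF receptors among them. IACS-010759 inhibits complex I of the respiratory chain. There was no arm with IACS-010759 alone, so its addition can only be read against 1.25 µM sorafenib.

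ABC transporters use ATP hydrolysis to carry substrates across a membrane. In the liver and bile ducts, ABCB11, ABCB4, ABCC2, ABCB1 and ABCG2 sit in the apical membrane that faces the bile, where they deliver bile salts, phosphatidylcholine, conjugated bilirubin and drugs into it. ABCC1, ABCC3, ABCC4 and in part ABCC5 sit in the basolateral or lateral membrane and export conjugates, bile salts and nucleotides towards the blood. Several of them are also known from cultured tumour cells as carriers that lower the intracellular amount of anticancer drugs, and their mRNA levels are under nuclear receptors and stress-responsive factors such as FXR (NR1H4), PXR (NR1I2), CAR (NR1I3) and NRF2 (NFE2L2).

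The libraries held 14388855 to 24019011 gene counts in OCUG-1 and 18238834 to 30693736 in HuCCT1. In all 24 pairs of replicates the counts differed by more than counting error (chi-square over its degrees of freedom 4.89 to 59.0). In HuCCT1 replicate 3 stood apart from replicates 1 and 2 of the vehicle, 1.25 µM and 10 µM arms, so results of that line were also computed without it. Counts from mitochondrial genes had a median share of 11.9% in OCUG-1 vehicle, 10.8% at 1.25 µM, 5.95% at 10 µM and 5.11% in the combination. In HuCCT1 the same arms had 11.8%, 19.4%, 9.72% and 11.1%. Of 10 biliary epithelial markers, 9 reached a mean of 1 CPM (counts scaled to the TMM-adjusted library total) in each line. Between the vehicle arms 1 of the 10 was higher in OCUG-1, 7 were lower and 2 were not called, where 68.3% of all tested genes were called. The markers differed widely in size. Over the 12 libraries of a line KRT8 averaged 2271 CPM in OCUG-1 and 1901 CPM in HuCCT1, and SOX9 averaged 111 CPM in OCUG-1 and 165 CPM in HuCCT1. KRT7 averaged 11.4 CPM in OCUG-1 and 5157 CPM in HuCCT1, and the junction gene CDH1 averaged 1.93 CPM in OCUG-1 and 151 CPM in HuCCT1. No endothelial or immune marker reached a mean of 10 CPM in either line.

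CPM levels, above and below, are scaled by TMM factors over all 24 libraries. Log2 fold changes come from the edgeR fit of the 12 libraries of a line unless said otherwise. A gene counts as called where edgeR's p, adjusted over all tested genes by the Benjamini-Hochberg method, was under 0.05. Of the members, 8 passed the filter on low counts in OCUG-1 and 7 in HuCCT1. ABCB1 and ABCB4 passed in neither line and ABCB11 did not pass in HuCCT1, so they have levels there but no test.

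Scaled by exon length, ABCC3, ABCC1, ABCC5 and ABCC4 stood in the same order in both untreated lines, while ABCC2 ranked far higher in OCUG-1. In OCUG-1 vehicle ABCC2 was the most abundant at 80.5 CPM per kb, followed by ABCC3 at 42.2, ABCC1 at 21.6, ABCC5 at 10.9 and ABCC4 at 1.84 CPM per kb, and neighbours in this order did not overlap. ABCC6 (1.27 CPM per kb) overlapped with ABCC4 above it and with ABCG2 (1.13 CPM per kb) below it, and ABCB11 was lower at 0.410 CPM per kb. In HuCCT1 vehicle ABCC3 led at 23.0 CPM per kb, followed by ABCC1 at 8.69, ABCC5 at 5.87 and ABCC4 at 3.27 CPM per kb without overlap. ABCG2 (0.419 CPM per kb) and ABCC2 (0.409 CPM per kb) overlapped there, and ABCC6 was lower at 0.112 CPM per kb. With the longest transcript as the length, ABCC5 passed ABCC1 and ABCC2 passed ABCG2 in HuCCT1 vehicle.

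**Figure D1:**
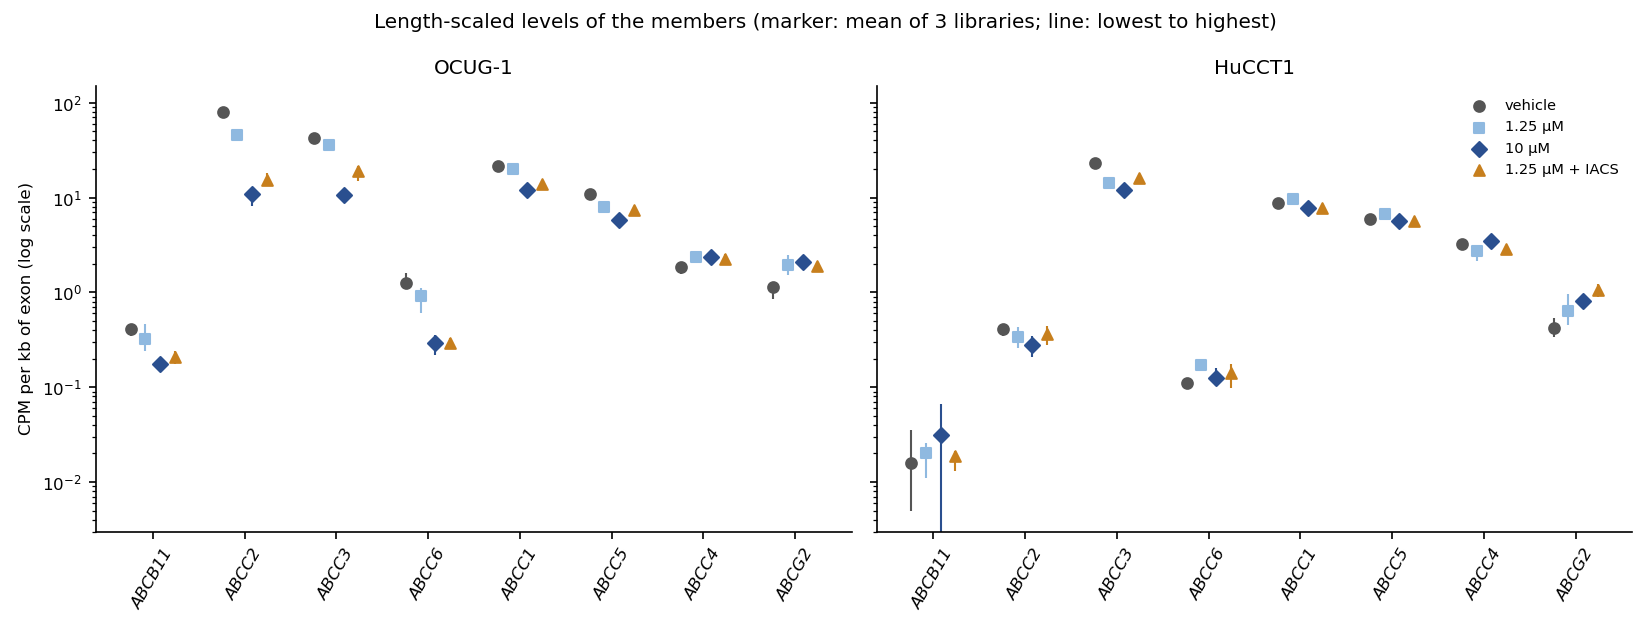
Mean CPM per kb of exon (log axis) of 8 members, without ABCB1 and ABCB4, in OCUG-1 (left) and HuCCT1 (right), with markers for the 4 arms and lines from the lowest to the highest of 3 libraries. The line that runs off the axis belongs to ABCB11 in HuCCT1 at 10 µM, where a library had 0 counts. ABCC2 tops OCUG-1 vehicle at 80.5 CPM per kb and lies at 0.409 CPM per kb in HuCCT1 vehicle.

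ABCC2, the canalicular pump for bilirubin glucuronides and glutathione conjugates, was the transporter that separated the lines most. Its gene (ENSG00000023839) lies on the forward strand of chr10:99782640-99852594 of GRCh38. Vehicle libraries held 635, 582 and 675 CPM in OCUG-1, against 3.22, 3.67 and 2.72 CPM in HuCCT1. The log2 difference was 7.63 ± 0.22 (SE, adjusted p = 7.86e-22), a 198-fold higher level in OCUG-1. The 7 members that passed the filter in both lines all differed between the untreated lines, where 68.3% of all tested genes did. ABCB11 had 164 counts over 3 vehicle libraries in OCUG-1 against 8 in HuCCT1, and since it passed the filter through OCUG-1 alone, no test of that difference is given. ABCC6 was higher in OCUG-1 by 3.49 ± 0.28 (adjusted p = 2.7e-12). ABCG2, ABCC1, ABCC5 and ABCC3 were higher there by 1.4245 ± 0.26, 1.31 ± 0.09, 0.89 ± 0.11 and 0.87 ± 0.14 on the log2 scale, with adjusted p-values of at most 1.56e-05. ABCC4 was the 1 of these 7 that was lower in OCUG-1, with a log2 difference of -0.83 ± 0.14 (adjusted p = 6.1e-06).

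ABCC2 also had the largest fall of the members on treatment of OCUG-1. Its libraries had 635, 582 and 675 CPM with vehicle, 404, 354 and 328 CPM at 1.25 µM sorafenib, and 94.5, 63.1 and 96.9 CPM at 10 µM. The 3 groups did not overlap, and the higher dose had the lower values. The log2 fold change against vehicle was -0.83 ± 0.15 (SE, adjusted p = 0.00289) at 1.25 µM and -2.82 ± 0.16 (adjusted p = 1.3e-10) at 10 µM, and 10 µM against 1.25 µM gave -1.99 ± 0.16 (adjusted p = 8.1e-09). Combination libraries had 102, 142 and 118 CPM, all below the 1.25 µM libraries, with a log2 fold change of -1.47 ± 0.15 (adjusted p = 3.12e-07) against 1.25 µM and -2.30 ± 0.16 (adjusted p = 1.39e-09) against vehicle. Of the 20511 genes tested in OCUG-1, 1.57% had a lower log2 fold change than ABCC2 at 10 µM and 3.07% in the combination against vehicle.

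In HuCCT1, ABCC2 was low in every arm. It had 3.22, 3.67 and 2.72 CPM with vehicle, 3.41, 2.41 and 2.04 CPM at 1.25 µM, 2.74, 1.65 and 2.21 CPM at 10 µM, and 3.45, 2.18 and 2.84 CPM in the combination. Every treated arm overlapped with vehicle, and the log2 fold change at 10 µM was -0.52 ± 0.26 (SE, adjusted p = 0.161). The lowest OCUG-1 library at 10 µM was still above the highest HuCCT1 library of any arm.

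**Figure D2:**
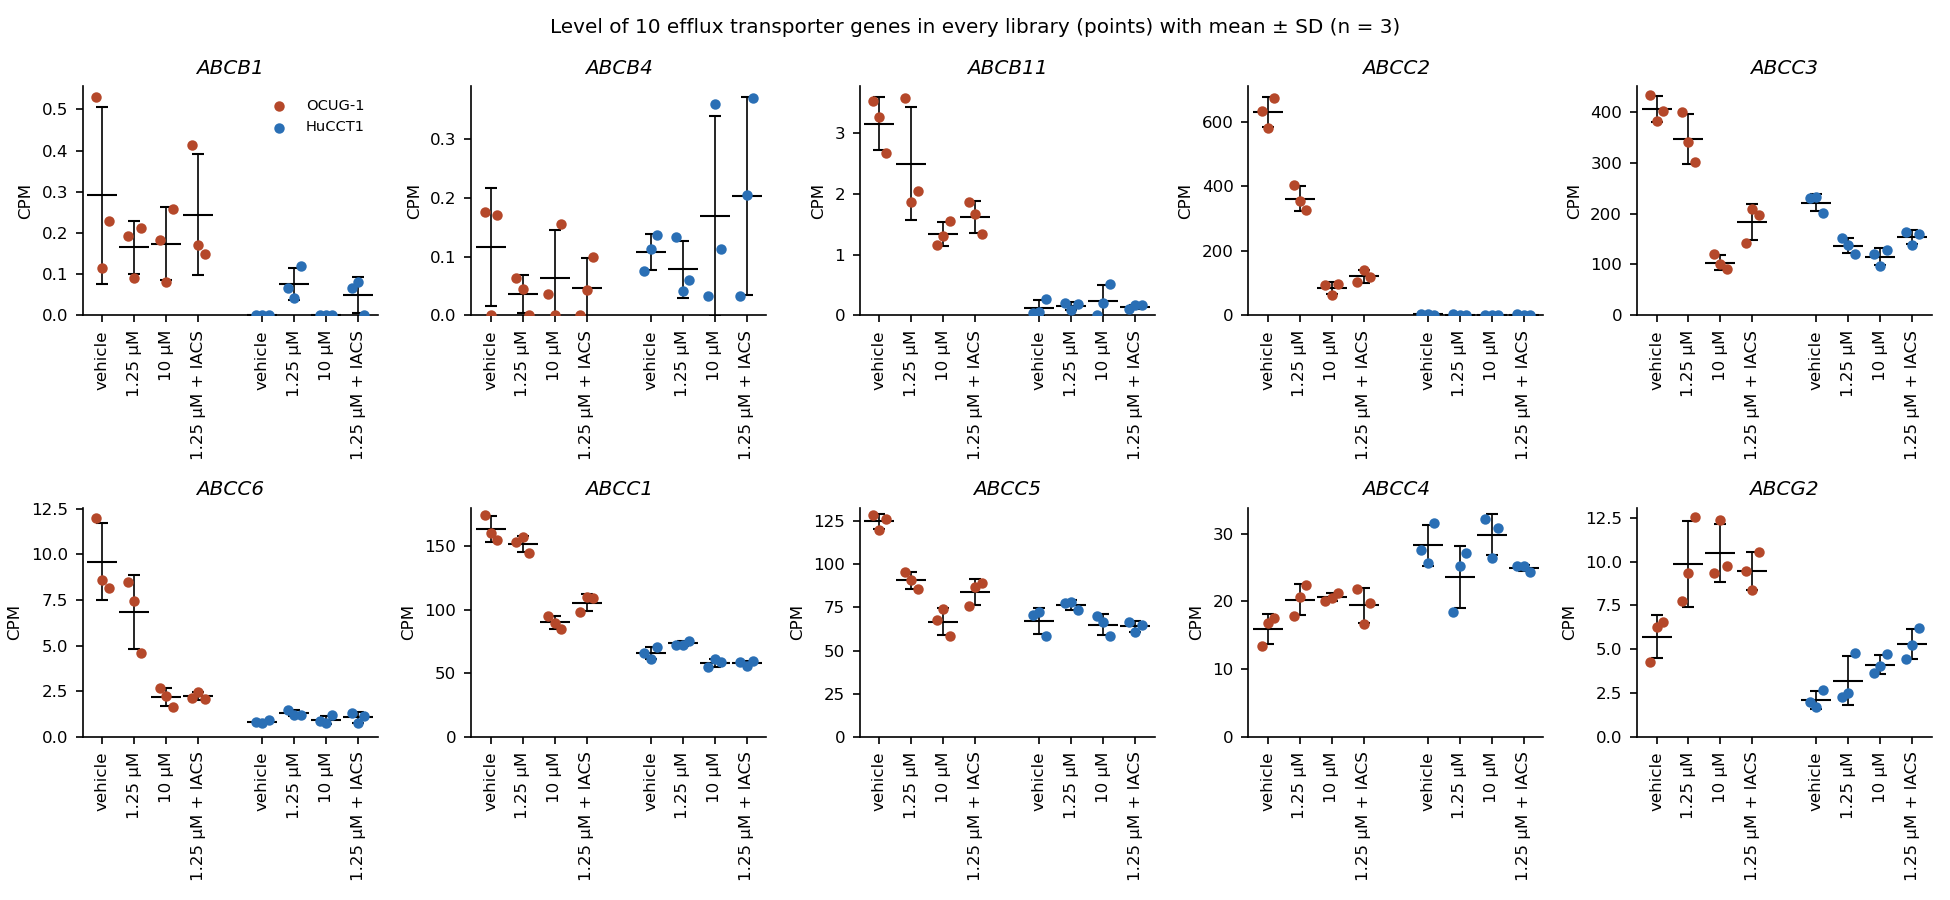
CPM of the members (1 panel each, vertical axes from 0) in OCUG-1 and HuCCT1 by arm, with 1 point per library and the mean ± SD of 3. ABCC2 in OCUG-1 steps down to 94.5, 63.1 and 96.9 CPM at 10 µM sorafenib, whereas ABCG2 lies higher in the 10 µM arm than in the vehicle arm of both lines.

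ABCB11, the bile salt export pump, was measured at a few CPM in OCUG-1 and at trace level in HuCCT1. OCUG-1 libraries had 3.53, 3.28 and 2.68 CPM with vehicle, 3.58, 1.88 and 2.06 CPM at 1.25 µM, and 1.17, 1.31 and 1.55 CPM at 10 µM. The 10 µM libraries lay below all vehicle libraries, with a log2 fold change of -1.17 ± 0.28 (SE, adjusted p = 0.00148). At 1.25 µM the libraries overlapped with vehicle, with a log2 fold change of -0.37 ± 0.28 (adjusted p = 0.398). Combination libraries had 1.86, 1.67 and 1.34 CPM, which gave a log2 fold change of -0.87 ± 0.28 (adjusted p = 0.0122) against vehicle. The call between 10 µM and 1.25 µM, a log2 fold change of -0.80 ± 0.29 (adjusted p = 0.0234), was lost without 1.25 µM replicate 1 (-0.46) or 10 µM replicate 1 (-0.71), and when these 2 groups alone were fitted (-0.80). HuCCT1 libraries had 0 to 9 counts, at most 0.511 CPM.

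ABCB1 (P-glycoprotein, the classical multidrug pump) and ABCB4 (the phosphatidylcholine floppase) were close to the limit of the sequencing in both lines. ABCB1 had 58 counts over all 24 libraries. It had 0 counts in the vehicle and 10 µM libraries of HuCCT1, which allows at most 0.102 to 0.170 CPM per library when 3 counts are taken as the limit of a count of 0, for counting error only. Its OCUG-1 libraries ran from 0.0817 to 0.530 CPM. ABCB4 ran from 0 to 0.177 CPM in OCUG-1 and from 0.0338 to 0.370 CPM in HuCCT1. No library of any arm held more than 0.530 CPM of ABCB1 or 0.370 CPM of ABCB4. Changes of either gene within these ranges were not detectable at this depth.

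ABCG2, the apical breast cancer resistance protein that exports drugs and urate, was the member that rose in both lines at 10 µM and in the combination. In OCUG-1 it had 4.30, 6.26 and 6.55 CPM with vehicle, 7.73, 9.34 and 12.5 CPM at 1.25 µM, and 9.35, 12.4 and 9.78 CPM at 10 µM. Every treated library was above every vehicle library, while the 2 doses overlapped. The log2 fold change was 0.75 ± 0.20 (SE, adjusted p = 0.0235) at 1.25 µM and 0.95 ± 0.20 (adjusted p = 0.000375) at 10 µM. Combination libraries had 9.46, 8.37 and 10.6 CPM, which gave a log2 fold change of 0.81 ± 0.20 (adjusted p = 0.00176) against vehicle and 0.06 ± 0.19 (adjusted p = 0.808) against 1.25 µM. The 1.25 µM call was lost without vehicle replicate 1 (0.59), 1.25 µM replicate 2 (0.80) or 1.25 µM replicate 3 (0.56).

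In HuCCT1, ABCG2 had 1.97, 1.69 and 2.68 CPM with vehicle, 2.28, 2.53 and 4.80 CPM at 1.25 µM, and 3.66, 4.02 and 4.71 CPM at 10 µM. At 1.25 µM the libraries overlapped with vehicle, and the log2 fold change was 0.59 ± 0.28 (SE, adjusted p = 0.156). The 10 µM libraries did not overlap with vehicle, and the log2 fold change was 0.95 ± 0.27 (SE, adjusted p = 0.0181). That call was lost without vehicle replicate 1 (0.89), vehicle replicate 2 (0.83) or 10 µM replicate 3 (0.85). Combination libraries had 4.46, 5.22 and 6.21 CPM, the highest mean of the line, with a log2 fold change of 1.32 ± 0.27 (adjusted p = 0.00269) against vehicle. Against 1.25 µM the combination had a log2 fold change of 0.73 ± 0.26 (adjusted p = 0.0835), and this comparison passed in 5 of 14 alternatives, among them without 1.25 µM replicate 3 (1.13). The responses of ABCG2 to 10 µM in OCUG-1 and in HuCCT1 differed by -0.07 ± 0.34 on the log2 scale (adjusted p = 0.91).

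ABCC3, which carries glucuronides and bile salts across the basolateral membrane, was the member that fell in both lines at 10 µM and in the combination. OCUG-1 libraries had 433, 381 and 402 CPM with vehicle, 398, 340.1 and 300.4 CPM at 1.25 µM, and 119.7, 100.1 and 90.2 CPM at 10 µM. At 1.25 µM they overlapped with vehicle (log2 fold change -0.26 ± 0.14, SE, adjusted p = 0.261), and at 10 µM they were wholly below it (log2 fold change -1.90 ± 0.15, adjusted p = 5.12e-09). Combination libraries had 143, 208 and 198 CPM, with a log2 fold change of -0.80 ± 0.15 (adjusted p = 0.000131) against 1.25 µM and -1.06 ± 0.15 (adjusted p = 6.19e-06) against vehicle.

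HuCCT1 libraries had 231, 232 and 201 CPM of ABCC3 with vehicle, 151, 139 and 121 CPM at 1.25 µM, and 120.1, 97.5 and 129 CPM at 10 µM. Both doses lay wholly below vehicle, with log2 fold changes of -0.69 ± 0.12 (SE, adjusted p = 0.00138) and -0.94 ± 0.12 (adjusted p = 5.09e-05). Combination libraries had 163, 139 and 160.1 CPM, which gave a log2 fold change of -0.52 ± 0.12 (adjusted p = 0.00604) against vehicle and 0.17 ± 0.12 (adjusted p = 0.399) against 1.25 µM. The 3 calls against vehicle held in all 14 alternatives of each comparison.

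ABCC6, an efflux protein of liver and kidney whose loss causes pseudoxanthoma elasticum, fell with ABCC2 in OCUG-1. It had 12.01, 8.62 and 8.15 CPM with vehicle, 8.50, 7.46 and 4.61 CPM at 1.25 µM, and 2.67, 2.25 and 1.66 CPM at 10 µM, where the log2 fold change was -2.04 ± 0.24 (SE, adjusted p = 8.64e-07). Combination libraries had 2.12, 2.48 and 2.09 CPM, all below the 1.25 µM libraries, with a log2 fold change of -1.505 ± 0.25 (adjusted p = 4.99e-05) against 1.25 µM and -2.01 ± 0.25 (adjusted p = 1.42e-06) against vehicle. HuCCT1 libraries ran from 0.740 to 1.47 CPM and no arm passed against vehicle. ABCC6 counts are uncertain because of 2 partial copies on the same chromosome: 14.1% of the 150-base windows of the ABCC6P1 transcripts and 25.1% of those of ABCC6P2 occur unchanged in ABCC6 transcripts. In the other direction, 5.93% of the ABCC6 windows occur in ABCC6P1 and 2.84% in ABCC6P2. The ABCC6P1 transcripts compared belong to an ID with 0 counts, and the levels given next are of another ID with that symbol. ABCC6P1 averaged 3.15 ± 0.542 CPM at 10 µM and 1.98 ± 0.193 CPM in the combination, against 7.92 ± 0.517 CPM with vehicle in OCUG-1 (SD, n = 3). How reads shared by these copies were counted is not given in the sources used here.

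ABCC1, a broad exporter of glutathione conjugates such as leukotriene C4, fell in OCUG-1 at 10 µM and in the combination. Its libraries had 174, 161 and 155 CPM with vehicle, 154, 157 and 145 CPM at 1.25 µM, and 84.9 to 95.3 CPM at 10 µM. The 10 µM libraries lay below all others, and the log2 fold change against vehicle was -0.79 ± 0.10 (SE, adjusted p = 1.17e-06). Combination libraries had 98.0, 110.0 and 109 CPM, which gave a log2 fold change of -0.41 ± 0.10 (adjusted p = 0.00144) against 1.25 µM and -0.54 ± 0.10 (adjusted p = 9.61e-05) against vehicle.

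In HuCCT1 ABCC1 had 66.0, 60.96 and 70.5 CPM with vehicle, 72.4, 72.4 and 75.8 CPM at 1.25 µM, 54.7, 61.3 and 58.7 CPM at 10 µM, and 59.0, 55.9 and 59.4 CPM in the combination, and no arm passed against vehicle. It was lower than at 1.25 µM both in the combination, with a log2 fold change of -0.34 ± 0.09 (SE, adjusted p = 0.0232), and at 10 µM, with -0.34 ± 0.09 (adjusted p = 0.0109). The combination call was lost in 7 of 14 alternatives, among them without 1.25 µM replicate 1 (-0.34) or 2 (-0.35) and without combination replicate 1 (-0.34), 2 (-0.31) or 3 (-0.35). It was also lost with library size scaling (-0.15). The 10 µM call was lost in 4 of 14, among them without 10 µM replicate 1 (-0.29) and with library size scaling (-0.16).

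ABCC5, an exporter of cyclic nucleotides and organic anions, fell at both doses in OCUG-1. It had 128, 119.8 and 126 CPM with vehicle, 95.5, 90.8 and 85.9 CPM at 1.25 µM, and 67.9, 74.3 and 58.3 CPM at 10 µM, 3 groups without overlap. The log2 fold changes against vehicle were -0.49 ± 0.11 (SE, adjusted p = 0.00774) and -0.83 ± 0.11 (adjusted p = 1.92e-06). The 10 µM libraries were below the 1.25 µM libraries by a log2 fold change of -0.34 ± 0.11 (adjusted p = 0.00976), a call lost with library size scaling (-0.22). Combination libraries had 75.6, 86.8 and 89.5 CPM, with a log2 fold change of -0.49 ± 0.11 (adjusted p = 0.000653) against vehicle and 0.00 ± 0.11 (adjusted p = 0.973) against 1.25 µM. In HuCCT1 it ran from 58.4 to 78.4 CPM over all arms, and no comparison passed. The combination against 1.25 µM there had a log2 fold change of -0.26 ± 0.10 (adjusted p = 0.121). It passed in 1 of 14 alternatives, replicates 1 and 2 alone.

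ABCC4, an exporter of cyclic AMP, prostaglandins and bile salts that is known to be raised in cholestatic liver, rose in OCUG-1 at 10 µM and in the combination. Its libraries had 13.4, 16.8 and 17.5 CPM with vehicle, 17.8, 20.6 and 22.4 CPM at 1.25 µM, and 20.1, 20.5 and 21.2 CPM at 10 µM. The log2 fold change was 0.32 ± 0.14 (SE, adjusted p = 0.135) at 1.25 µM and 0.44 ± 0.13 (adjusted p = 0.00758) at 10 µM. The 10 µM call was lost without vehicle replicate 1 (0.33). Combination libraries had 21.8, 16.7 and 19.8 CPM and overlapped with vehicle, with a log2 fold change of 0.37 ± 0.13 (adjusted p = 0.0238). That call was lost without vehicle replicate 1 (0.26), combination replicate 1 (0.25) or combination replicate 3 (0.34). HuCCT1 libraries ran from 18.5 to 32.2 CPM, and no comparison passed there. Its log2 fold change for 10 µM against 1.25 µM in HuCCT1 was 0.33 ± 0.14 (adjusted p = 0.0805). That comparison passed in 4 of 14 alternatives.

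The sequences before the start sites of 4 members are shown so that genes of opposite course in OCUG-1 can be compared: ABCC2 and ABCC6, which fell at 10 µM, and ABCC4 and ABCG2, which rose. They are RefSeq promoter windows of GRCh38.p14, 250 bases 5′ to 3′ on the gene's strand up to the base before the RefSeq start, with 1 window shown for each gene. The table held 13 windows of 7 of the 10 members, and ABCB4, ABCC1 and ABCC3 were not among them. Capitals mark letters matched in a search of both strands for 6 short motifs. GGGCGG is the GC box, which 42.6% of 35116 windows of the same length held. CCAAT was present in 32.0% of them. The E-box, CACGTG, was present in 6.34%. The core of the antioxidant response element that NRF2 binds was searched as TGACNNNGC and was present in 10.9%. The AP-1 site was searched as TGANTCA and found in 6.57%. The HNF1 half-site was searched as GTTAAT and found in 6.23%.
ABCC2 (chr10:99782390-99782639, forward strand): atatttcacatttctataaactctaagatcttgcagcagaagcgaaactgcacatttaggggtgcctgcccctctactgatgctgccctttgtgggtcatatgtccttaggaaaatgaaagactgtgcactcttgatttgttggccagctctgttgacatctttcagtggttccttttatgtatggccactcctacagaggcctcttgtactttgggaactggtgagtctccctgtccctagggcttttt
ABCC6 (chr16:16223495-16223744, reverse strand): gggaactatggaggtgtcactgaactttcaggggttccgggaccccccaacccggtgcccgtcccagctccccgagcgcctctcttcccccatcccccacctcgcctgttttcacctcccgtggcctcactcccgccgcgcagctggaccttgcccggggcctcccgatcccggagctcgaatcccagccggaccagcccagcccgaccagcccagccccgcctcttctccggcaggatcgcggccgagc
ABCC4 (chr13:95301452-95301701, reverse strand): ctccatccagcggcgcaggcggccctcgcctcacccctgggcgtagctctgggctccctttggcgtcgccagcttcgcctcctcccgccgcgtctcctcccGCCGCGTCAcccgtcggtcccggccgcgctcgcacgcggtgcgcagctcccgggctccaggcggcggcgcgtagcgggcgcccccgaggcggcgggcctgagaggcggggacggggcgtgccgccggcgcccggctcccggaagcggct
ABCG2 (chr4:88158910-88159159, reverse strand): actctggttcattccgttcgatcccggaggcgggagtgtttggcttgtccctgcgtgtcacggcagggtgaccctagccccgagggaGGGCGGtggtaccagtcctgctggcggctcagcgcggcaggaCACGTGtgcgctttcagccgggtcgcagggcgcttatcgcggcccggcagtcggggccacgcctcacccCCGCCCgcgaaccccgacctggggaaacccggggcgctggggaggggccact
The ABCC2 and ABCC6 windows held none of the 6 motifs. Windows not shown, of other members that fell at 10 µM in OCUG-1, did hold motifs. ABCB11 had an AP-1 site 189 bases before the start, and ABCC5 had a GC box 176 bases before it. Falling members thus occurred both with and without a motif. The ABCC4 window held the antioxidant response element core, on the strand opposite to the gene, 149 bases before the start. The ABCG2 window held 1 E-box and 2 GC boxes. Of the other 4 ABCG2 windows, 1 (chr4:88158860-88159109) overlaps the window shown and held the same motif bases, and the rest held none of the motifs. The windows also differed in base composition, with 45.6% G and C before ABCC2 and 70.8%, 80.4% and 71.2% before ABCC6, ABCC4 and ABCG2. A match is a run of letters and not a measured binding site.

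Counted by comparison, 3 of 8 tested members were called in OCUG-1 at 1.25 µM (ABCG2 up, ABCC2 and ABCC5 down), where 10.5% of all tested genes were. At 10 µM all 8 were called, 2 up and 6 down, against 63.1% of all genes, and in the combination against vehicle all 8 again, against 59.5%. With so many genes called, direction and size separate the members more than the call does. Called falls of at least 2-fold were seen in 4 of 8 members at 10 µM (ABCC2, ABCC6, ABCC3 and ABCB11), where 16.8% of all genes had one, and in 3 of 8 in the combination against vehicle, where 15.0% had one. The median log2 fold change of the tested members was -1.0004 at 10 µM and -0.71 in the combination against vehicle, beside 0.00 and 0.04 over all tested genes. On addition of IACS-010759 to 1.25 µM, 4 of 8 fell (ABCC6, ABCC2, ABCC3, ABCC1) and none rose. Of all genes 58.1% were called in either direction, and 54.0% of those calls were rises. Between 10 µM and 1.25 µM, 6 of 8 were lower at 10 µM and none was called higher. Of all genes 60.5% were called in either direction, and 52.1% of those calls were higher at 10 µM.

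**Figure D3:**
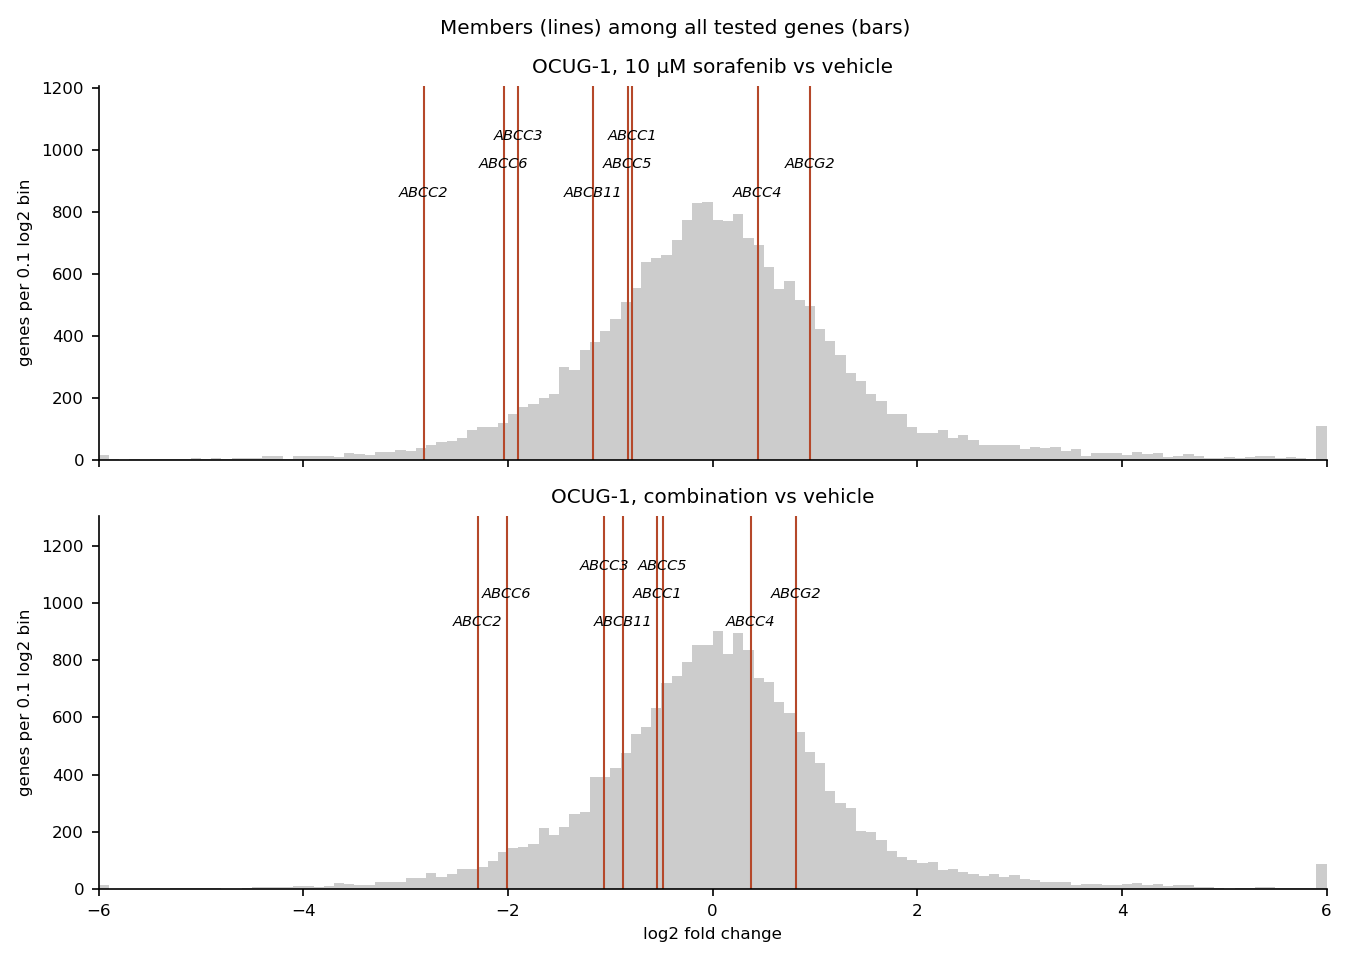
Log2 fold changes of all 20511 genes tested in OCUG-1 (grey bars, number of genes per bin, with values beyond 6 gathered in the end bins) for 10 µM sorafenib and for the combination, each against vehicle, and of the 8 tested members (red lines). ABCC2 at -2.82 and -2.30 is the member furthest into the lower tail, and ABCC4 and ABCG2 are the members above 0.

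In HuCCT1 fewer members were called. At 1.25 µM 1 of 7 tested members was called (ABCC3 down) with 18.5% of all genes called. At 10 µM 2 of 7 were called (ABCG2 up, ABCC3 down) with 24.2% of all genes, and the same 2 in the combination against vehicle with 20.1%. The combination differed from 1.25 µM in 1 of 7 (ABCC1 down) with 11.6% of all genes, and 10 µM from 1.25 µM in 1 of 7 (ABCC1 down) with 28.2%. The median log2 fold change of the 7 at 10 µM was -0.05, beside 0.01 over all tested genes.

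**Figure D4:**
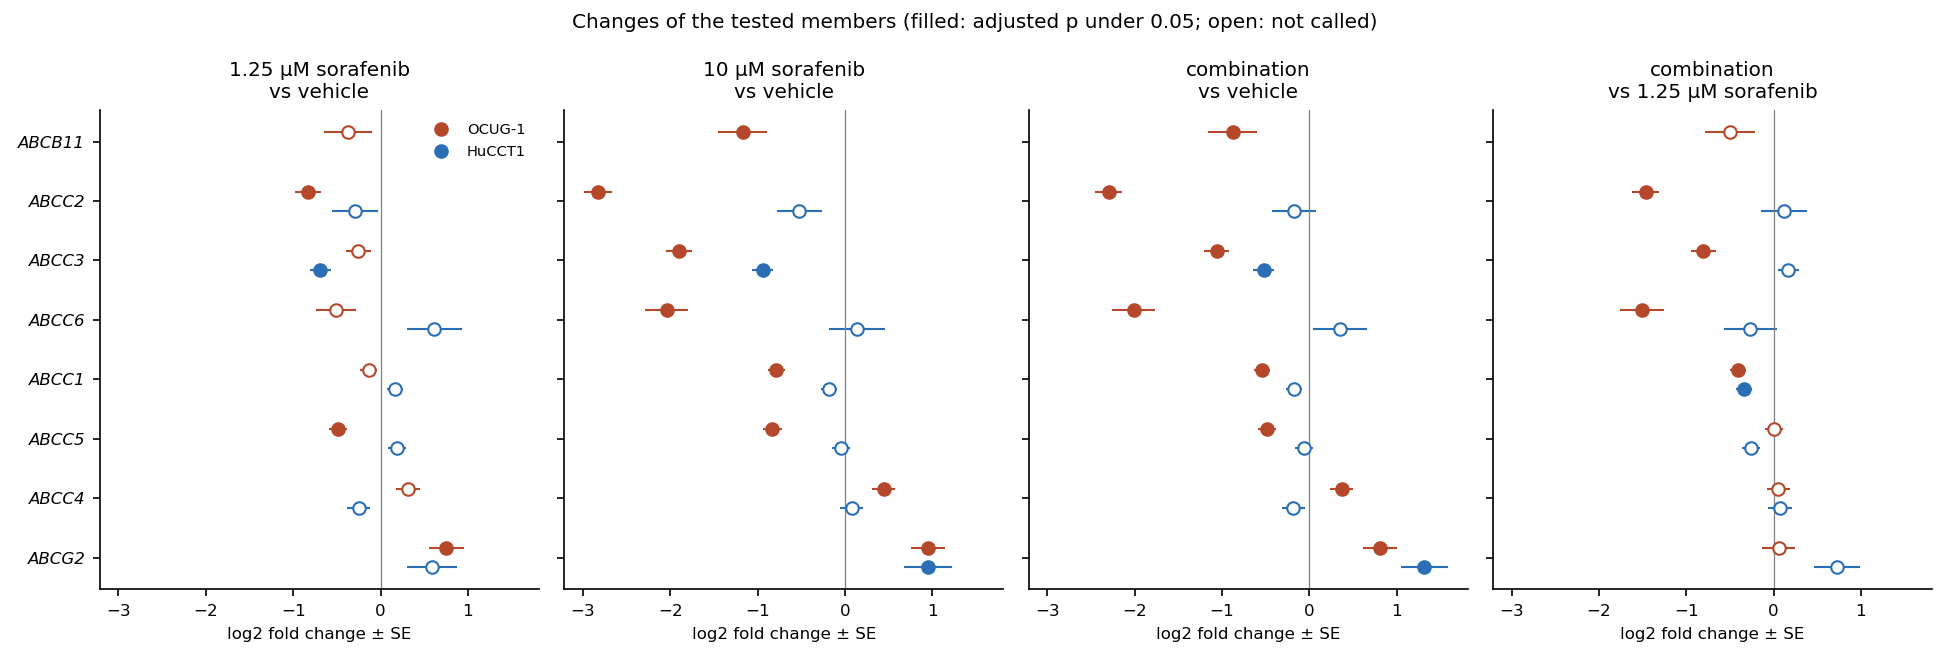
Log2 fold changes ± SE of the 8 tested members in OCUG-1 (red) and HuCCT1 (blue) for 4 comparisons, filled where the adjusted p was under 0.05. ABCB11 has no HuCCT1 point because it was not tested there. At 10 µM the 6 falls in OCUG-1 run from -0.79 to -2.82, while in HuCCT1 ABCC3 at -0.94 is the only filled fall.

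Summed over the 10 genes, transporter mRNA was 1359 ± 70.0 CPM with vehicle, 991 ± 94.4 CPM at 1.25 µM and 380.0 ± 26.8 CPM at 10 µM in OCUG-1 (SD, n = 3). The combination had 526 ± 63.9 CPM. Most of the vehicle sum was ABCC2 and ABCC3, with means of 631 and 405 CPM, which were 84.8 and 103 CPM at 10 µM. The sum thus mainly follows these genes, while ABCC4 and ABCG2 rose. In HuCCT1 the sums were 389 ± 18.1, 318 ± 11.1 and 276 ± 14.98 CPM in the same dose order, and 311 ± 18.9 CPM in the combination. The order of the transporters per kb also changed in OCUG-1. At 10 µM ABCC1, ABCC2 and ABCC3 overlapped at the top, and in the combination ABCC3 overlapped with ABCC2 and ABCC2 with ABCC1. ABCG2 stood above ABCC6 without overlap in every treated OCUG-1 arm, whereas with vehicle they overlapped.

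Whether the lines responded differently was tested as the difference of log2 fold changes, OCUG-1 minus HuCCT1, in 1 fit of all 24 libraries. ABCB11 passed the filter of that fit through OCUG-1 alone and is left out of the count. At 10 µM, 5 of the 7 members that passed in both lines had a lower log2 fold change in OCUG-1. Of all tested genes, 43.8% differed between the lines in either direction, and 47.2% of those calls were higher in OCUG-1. The difference was -2.39 ± 0.29 (adjusted p = 1.01e-07) for ABCC2, -2.24 ± 0.40 (adjusted p = 4.07e-05) for ABCC6, -1.03 ± 0.19 (adjusted p = 6.9e-05) for ABCC3, -0.86 ± 0.15 (adjusted p = 2.37e-05) for ABCC5 and -0.68 ± 0.13 (adjusted p = 6.85e-05) for ABCC1. On addition of IACS-010759 to 1.25 µM, ABCC2 differed by -1.72 ± 0.28 (adjusted p = 1.65e-05), ABCC6 by -1.36 ± 0.39 (adjusted p = 0.00585) and ABCC3 by -1.09 ± 0.19 (adjusted p = 4.22e-05), with 38.8% of all genes called. At 1.25 µM against vehicle ABCC5 differed by -0.65 ± 0.15 (adjusted p = 0.00563) and ABCC4 by 0.60 ± 0.20 (adjusted p = 0.0499), with 9.65% of all genes called. The ABCC4 difference was lost in 11 of 18 alternatives, where its adjusted p reached 0.175.

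**Figure D5:**
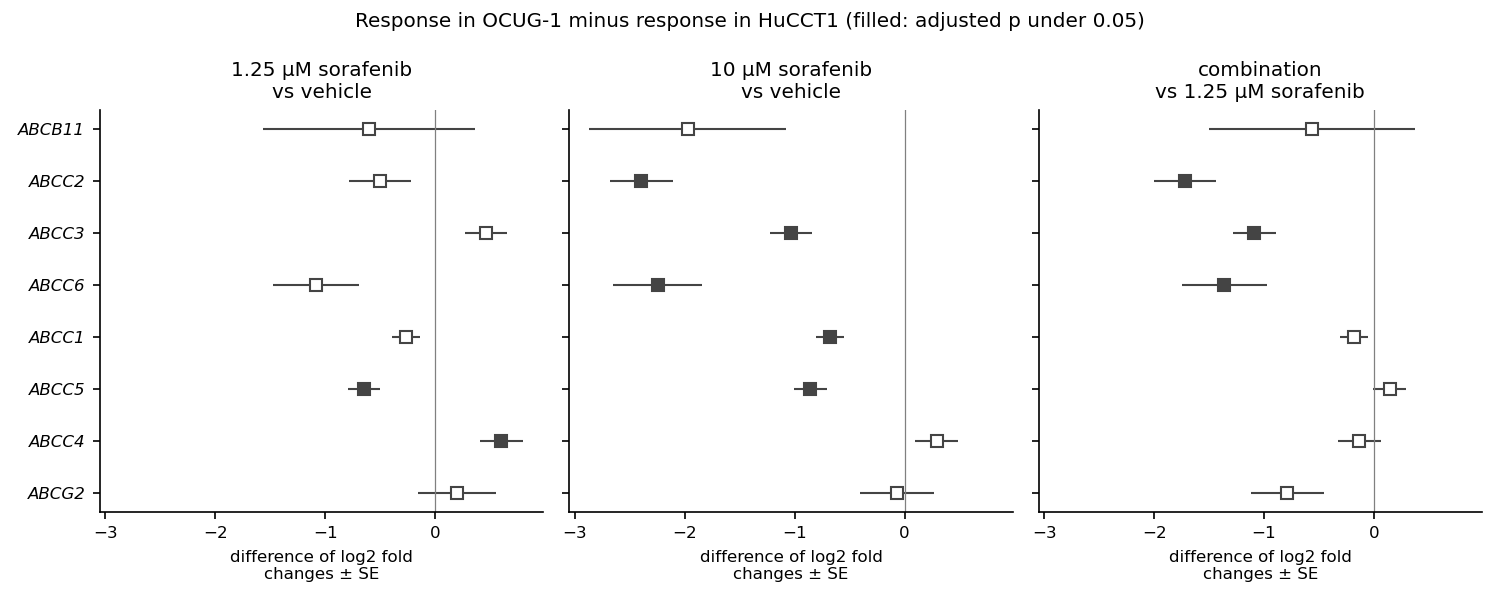
Difference of log2 fold changes, OCUG-1 minus HuCCT1, ± SE for the 8 members in 3 comparisons, filled where the adjusted p was under 0.05. At 10 µM the filled points run from -0.68 for ABCC1 to -2.39 for ABCC2, and the wide bars of ABCB11 go with its 0 to 9 counts per HuCCT1 library. ABCB11 passed the filter through OCUG-1 alone, so its points are drawn but not read as a test.

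Markers of cell identity moved in the same OCUG-1 arms. The 10 biliary epithelial markers summed to 4620 to 5420 CPM with vehicle, 5920 to 7490 CPM at 1.25 µM, 1220 to 1560 CPM at 10 µM and 1490 to 1700 CPM in the combination. In the 10 µM comparison 6 of the 10 fell and 3 rose. The 10 hepatocyte markers summed to 102 to 130 CPM with vehicle, 34.2 to 36.8 CPM at 1.25 µM, 9.23 to 13.7 CPM at 10 µM and 5.87 to 9.31 CPM in the combination. Most of that sum was FGB, a fibrinogen chain, at 110.4 ± 14.3 CPM with vehicle, while ALB stayed at or under 2.69 CPM, CYP3A4 at or under 1.43 CPM and APOB had 0 counts. The hepatocyte markers did not all fall. Of 5 tested in OCUG-1, 2 rose and 3 fell at 10 µM, where 63.1% of all genes were called. The split was the same in the combination against vehicle, where 59.5% were. In HuCCT1 the hepatocyte sum was 176 to 256 CPM over all arms, nearly all of it SERPINA1. The 6 fibroblast markers summed to 61.2 to 96.8 CPM at 10 µM and 48.7 to 63.5 CPM in the combination, against 139 to 159 CPM with vehicle in OCUG-1. The part of these shifts, and of the lower mitochondrial share, in the transporter results was not tested, and in bulk RNA fewer cells of a kind and less RNA per cell cannot be told apart.

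Of 15 regulators of transporter genes, 11 were tested in each line. In OCUG-1 2 rose and 6 fell at 10 µM, where 63.1% of all genes were called, and 3 rose and 6 fell in the combination against vehicle, where 59.5% were. KEAP1, the inhibitor of NRF2, averaged 50.7 ± 3.44 CPM at 10 µM, against 30.7 ± 0.845 CPM with vehicle (log2 fold change 0.79 ± 0.10, adjusted p = 2.44e-06). NRF2 (NFE2L2) itself averaged 90.1 ± 7.65 CPM at 1.25 µM, against 137 ± 8.32 CPM with vehicle (log2 fold change -0.63 ± 0.12, adjusted p = 0.00413) in OCUG-1, and averaged 79.5 ± 12.8 CPM at 1.25 µM, against 112 ± 13.2 CPM with vehicle (log2 fold change -0.49 ± 0.14, adjusted p = 0.024) in HuCCT1. HNF4A, a liver transcription factor, averaged 2.22 ± 0.150 CPM at 10 µM, against 4.85 ± 0.522 CPM with vehicle (log2 fold change -1.06 ± 0.21, adjusted p = 0.000296). RXRA, the shared partner of these nuclear receptors, and PPARA fell by 0.75 and 0.82 on the log2 scale at 10 µM in OCUG-1. FXR (NR1H4), the bile acid receptor that switches on ABCB11 in hepatocytes, averaged 0.524 ± 0.117 CPM in the combination, against 2.07 ± 0.522 CPM with vehicle (log2 fold change -1.88 ± 0.37, adjusted p = 0.000241). PXR (NR1I2) was at or under 0.286 CPM in OCUG-1 and 0.474 CPM in HuCCT1, and FXR was at or under 0.0411 CPM in HuCCT1. In HuCCT1 1 regulator rose and 2 fell at 10 µM (24.2% of all genes called), and PPARG averaged 43.5 ± 5.49 CPM at 10 µM, against 28.96 ± 0.880 CPM with vehicle (log2 fold change 0.59 ± 0.10, adjusted p = 0.000572).

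The other 38 listed ABC genes were mixed in direction. In OCUG-1 33 were tested, of which 9 rose and 16 fell at 10 µM, beside 63.1% of all genes called, and 11 rose and 15 fell in the combination against vehicle, beside 59.5%. Their median log2 fold change was -0.53 at 10 µM and -0.35 in the combination, and that of all tested genes was 0.00 and 0.04. The lipid carriers ABCA2, ABCA7 and ABCA1 fell by 2.76, 1.98 and 1.68 on the log2 scale at 10 µM. ABCE1, a ribosome recycling factor that is no transporter, averaged 177 ± 21.2 CPM at 10 µM, against 74.5 ± 7.21 CPM with vehicle (log2 fold change 1.32 ± 0.11, adjusted p = 8.85e-09). In HuCCT1 27 were tested, of which 3 rose and 6 fell at 10 µM, beside 24.2% of all genes called. The sterol exporter ABCG1 averaged 1.53 ± 0.929 CPM at 10 µM, against 4.70 ± 0.259 CPM with vehicle (log2 fold change -1.69 ± 0.38, adjusted p = 0.00402), and ABCA5 averaged 29.9 ± 6.37 CPM at 10 µM, against 15.4 ± 2.06 CPM with vehicle (log2 fold change 0.96 ± 0.19, adjusted p = 0.00184).

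Enzymes that make the conjugates these pumps carry were also counted. Of 20 genes for glutathione supply and conjugation, 17 were tested in OCUG-1. At 10 µM 2 rose and 9 fell, beside 63.1% of all genes called, and on addition of IACS-010759 to 1.25 µM none rose and 13 fell, beside 58.1%. UGT1A1, which glucuronidates bilirubin for export by ABCC2, averaged 1.14 ± 0.320 CPM at 10 µM, against 23.5 ± 4.73 CPM with vehicle (log2 fold change -4.29 ± 0.30, adjusted p = 2.77e-09) in OCUG-1. UGT1A genes share exons, so counts within that cluster are uncertain. In HuCCT1 15 were tested, and 4 rose and none fell at 10 µM, beside 24.2% of all genes called. GCLC, the catalytic subunit of the rate-limiting enzyme of glutathione synthesis, averaged 107 ± 22.5 CPM at 10 µM, against 49.8 ± 3.59 CPM with vehicle (log2 fold change 1.10 ± 0.14, adjusted p = 4.05e-05). GCLM, its modifier subunit, averaged 57.1 ± 3.02 CPM at 10 µM, against 34.1 ± 5.94 CPM with vehicle (log2 fold change 0.74 ± 0.14, adjusted p = 0.00131). The test between the lines covered 17 of these genes, although only 15 passed the filter in HuCCT1. Those that did not were not taken out, so the counts are a description only. At 10 µM, 10 of 17 had a lower log2 fold change in OCUG-1 than in HuCCT1, none a higher one and 7 were not called, beside 43.8% of all genes called. At 1.25 µM 16 of 17 were not called in that test.

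Of 17 uptake and basolateral solute carriers, 12 were tested in OCUG-1, and 3 rose and 5 fell at 10 µM, a share near the 63.1% called among all genes. SLCO2B1, an organic anion importer, averaged 10.9 ± 3.76 CPM at 10 µM, against 30.3 ± 1.87 CPM with vehicle (log2 fold change -1.41 ± 0.23, adjusted p = 5.75e-05). In HuCCT1 11 were tested, and 1 rose and 2 fell at 10 µM (24.2% of all genes called), the prostaglandin carrier SLCO2A1 falling by 1.13 and SLC22A3 by 1.00 on the log2 scale. Of 15 genes that place transporters in the apical membrane or act there, all were tested in both lines. In OCUG-1 7 rose and 3 fell at 10 µM, again near the share of all genes. STX3, an apical docking protein, averaged 119.6 ± 16.3 CPM at 10 µM, against 26.3 ± 2.31 CPM with vehicle (log2 fold change 2.25 ± 0.13, adjusted p = 1.33e-10) in OCUG-1. In HuCCT1 4 rose and 1 fell at 10 µM (24.2% of all genes called), and STX3 averaged 75.7 ± 2.33 CPM in the combination, against 128 ± 11.4 CPM with vehicle (log2 fold change -0.76 ± 0.13, adjusted p = 0.000711).

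The genes whose log2 CPM tracked a member most closely over the 12 libraries of a line were taken by the highest Pearson r among protein-coding genes with a mean of at least 10 CPM. In OCUG-1 they were SLC35E2B, CCNF and ALDH3A2 for ABCC2 (r = 0.996, 0.995 and 0.995), DAPK1, DGLUCY and LAMA5 for ABCC3 (r = 0.996, 0.992 and 0.991), and NAPG, NUP37 and AGPS for ABCG2 (r = 0.961, 0.954 and 0.952). In HuCCT1 they were VEGFA, SCART1 and LCN2 for ABCC3 (r = 0.960, 0.950 and 0.948) and RNF167, ECI2 and PRDX4 for ABCG2 (r = 0.959, 0.958 and 0.949). The 12 points share 4 arms and their scaling factors.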

How the data were processed

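RNA was extracted with TRIzol, libraries were made with a TruSeq mRNA kit and read as paired ends on a NovaSeq, per the labels' protocols. The submitters' processing notes name bcl2fastq, fastp 1.3.2, HISAT2 2.2.2, featureCounts from Subread 2.1.1, MultiQC 1.33, R 4.4.1 and DESeq2 1.42.1 with the GRCh38 build. No source used here states which annotation was counted, whether strand was used or how multi-mapping reads were treated. The authors deposited raw counts per Ensembl gene ID, 1 table per line, per the file headers. Some OCUG-1 libraries had further sequencing runs, per the series' design text, which does not name them. Of 78724 IDs, 61481 were in the gene name table and 57302 in GENCODE release 29, whose exon lengths and GRCh38 coordinates were used.

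Counts were tested with the quasi-likelihood test of edgeR 4.0.16 (limma 3.58.1, R 4.3.3) after TMM scaling and filterByExpr at a minimum count of 10, with Benjamini-Hochberg adjustment over all tested genes and a threshold of 0.05. The 12 libraries of a line were fitted together (19576 genes in HuCCT1, 20511 in OCUG-1), and all 24 for differences between lines (22944 genes). The script was run on simulated counts in which a small share of genes changed in a single arm. That setting is narrower than the wide changes in OCUG-1 at 10 µM. Standard errors were derived from the test statistic. P-values measure the spread between replicates of 1 line. Members and gene lists were chosen with earlier results of these data known. All members are named, and from each other list up to 4 genes with the smallest adjusted p in a comparison or genes not detected. NRF2 levels are named on that rule. Same-numbered replicates did not deviate together, with a median correlation of 0.05 in HuCCT1 and -0.03 in OCUG-1, so numbers were not taken as pairs. Alternatives were DESeq2 1.42.0, RLE and library size scaling, other count filters, only the compared groups, a replicate block and leaving out each library. For HuCCT1, use of replicates 1 and 2 alone was chosen after seeing the data.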

Additional observations from a re-analysis of the deposited data

Results flagged for a closer look

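The response of 6 members differed between the lines by the test of the difference itself (edgeR, log2 fold change in OCUG-1 minus that in HuCCT1, ± SE). At 10 µM sorafenib against vehicle the difference was -2.39 ± 0.29 for ABCC2, -2.24 ± 0.40 for ABCC6, -1.03 ± 0.19 for ABCC3, -0.86 ± 0.15 for ABCC5 and -0.68 ± 0.13 for ABCC1, and all 5 held in 18 of 18 alternatives. For the combination against 1.25 µM it was -1.72 ± 0.28 for ABCC2, -1.36 ± 0.39 for ABCC6 and -1.09 ± 0.19 for ABCC3, and these 3 also held in 18 of 18. At 1.25 µM against vehicle it was -0.65 ± 0.15 for ABCC5, which held in 18 of 18, and 0.60 ± 0.20 for ABCC4, which held in 7 of 18. In the same tests 43.8% of all tested genes were called at 10 µM, 38.8% for the combination against 1.25 µM and 9.65% at 1.25 µM. Line and medium cannot be told apart in these differences.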

How the results depend on the processing

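No member changed direction with a call under any alternative, and DESeq2, RLE scaling and a minimum count of 20 moved none of the 107 member results across the threshold. The 107 include line comparisons of ABCB11, which passed that filter through OCUG-1 alone. A replicate block was also fitted, although the labels name no pairing by number. The best match had the same number for 3 of 12 libraries in OCUG-1, and for 6 of 12 in HuCCT1. The block moved 5 of 107 member results across the threshold. It gave 2 called members in HuCCT1 for the combination against 1.25 µM (1 without the block). No other count of members was moved by over 1.5 times with it. In the HuCCT1 combination against 1.25 µM, leaving out 1 library gave 0 to 2. Replicates 1 and 2 alone, an alternative chosen after seeing the data, gave 3. For 10 µM against 1.25 µM in HuCCT1 (1 called), 0 were called with no low-count filter and 0 with the compared groups alone, 4 with replicates 1 and 2 alone, and 0 to 3 leaving out 1 library. For HuCCT1 10 µM against vehicle (2 called) leaving out 1 library gave 1 to 2. For the difference between lines at 1.25 µM (2 called) library size scaling gave 1 and leaving out 1 library gave 1 to 3. Over all genes, HuCCT1 1.25 µM against vehicle had 3616 calls and 5956 with replicates 1 and 2 alone, and the combination against 1.25 µM had 2276, 5853 with those replicates and 3474 with the compared groups alone. Leaving out 1 library moved counts over all genes by over 1.5 times in 6 comparisons. The range was 1710 to 4749 in HuCCT1 at 1.25 µM, 877 to 3224 for the combination against 1.25 µM, 2342 to 3293 (3931 with all libraries) for the combination against vehicle and 3472 to 6284 (5518) for 10 µM against 1.25 µM. It was 653 to 2558 (2160) in OCUG-1 at 1.25 µM and 1209 to 3385 (2214) for the difference between lines at 1.25 µM. Library size scaling shifted the median of all genes by up to 0.19 on the log2 scale. It changed the share of calls that were higher in HuCCT1 to 26.7% (54.0% with TMM) at 1.25 µM, 82.4% (43.5%) in the combination against 1.25 µM and 77.5% (51.2%) at 10 µM against 1.25 µM, and in OCUG-1 at 1.25 µM to 28.8% (56.2%). The cause was not tested.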
